A study of Mus musculus with 6 samples.

Results

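Break ends in the Step2 neurons were compared with break ends in the Step1 neurons, using 4 of the 6 BLISS libraries of the series. The 2 libraries titled Step2 and the 2 titled Step1 were taken by their titles, and the 2 Con libraries are given beside them as the control level. All 3 groups were neurons sorted from the forebrain of mice of the CK-p25 genotype, and all were labelled with 2 weeks of induction by taking doxycycline out of the diet. The induction was thus shared by Con, Step1 and Step2. In this line the CaMKII promoter drives p25 in forebrain excitatory neurons. The labels do not say how Con, Step1 and Step2 neurons were told apart, nor whether the replicates of a group were separate animals. The p-values therefore reflect no more than how far these libraries differed among themselves, and that difference may be technical.

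BLISS marks free DNA ends: in fixed nuclei the ends of double-strand breaks are blunted, tailed with an A and ligated to an adaptor, and the DNA next to the adaptor is transcribed in vitro and sequenced. The first base of a read is therefore the base next to a break. p25 is a fragment of p35 that keeps the kinase Cdk5 overactive, and neurons that express it gather double-strand breaks before they are lost. In neurons breaks are known to form at the starts of active genes, where topoisomerases work, and in very long neural genes.

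The Step1 libraries held 2403238 and 2043098 reads and the Step2 libraries 1526487 and 1480461, against 2300995 and 2273508 in Con. Every library was thinned at random to 1479945 reads on chromosomes 1 to 19 and X, which left the second Step2 library whole. Each value below is a number or share of these thinned reads. It places the ends along the genome and gives no number of breaks per nucleus. The deposited reads had already been stripped of PCR copies by their molecular identifier, so several reads at 1 position count as separate molecules in the deposited files. Results are with all reads unless 1 read per position and strand is named. The read length moved with the group: the median was 48 bases in both Step1 libraries, 47 in both Step2 libraries and 49 in both Con libraries. Its part in the results was not tested. Over 10480 genes the log2 levels of the Step1 libraries correlated at r = 0.931 and those of the Step2 libraries at 0.917, and libraries of different groups at 0.920 to 0.924, between the values of the replicate pairs. Since DNA was read, no marker gene gives the cell type. The 14 excitatory marker genes held 0.405 and 0.410 ends per kb and 1e+06 reads in Step1 and 0.399 and 0.386 in Step2, and the 14 oligodendrocyte markers held 0.416 and 0.369, and 0.387 and 0.375.

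The widest differences between Step2 and Step1 lay at single base positions. Sequences around 9 of them are shown because most of the genes and windows described below as called have a large part of their reads at such a position. Chl1 and the window with Meg3 do not, with 17.2% and 11.6% at their most used position. Each run has 15 bases before the end and 15 bases from the first base of the read onward, on the strand of the read, with the 5 bases before the end in capitals. The sequences come from the RefSeq copy of GRCm38, the assembly of mm10. The first 4 positions had more reads in Step1 and the last 5 more in Step2. Letters b and c mark other positions of the same ribosomal RNA block as a.
Cma2 intron, chr14:55955579-55955608, plus strand: aaaacaaaagTTCCTgaatttttgatctta
Scarna2, chr3:108554610-108554639, plus strand: tacacacactCGCCTtgcacctcccagtcg
Ribosomal RNA block a, chr17:39844412-39844441, minus strand: cccgcgacttCGCCAgccgtgggaacgctg
Ribosomal RNA block b, chr17:39846109-39846138, minus strand: acccgagcgtTGCCCcgggacagctctccg
Between genes, chr2:90395118-90395147, plus strand: acagaagtggATGCCcagtcaaactcccca
Between genes, chr11:109011889-109011918, plus strand: gtcgcgttacCGCACtggacgcctcgcggc
Cdk8 intron, chr5:146261324-146261353, minus strand: gggaaagatcCGCCGggaccaccggcatgg
Ribosomal RNA block c, chr17:39848594-39848623, minus strand: acgcgacaacCGCCCcagccaacgtagaaa
Snord14c in Hspa8, chr9:40803648-40803677, minus strand: atgtttcattCGCTCagacatccaaggaag

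Among windows of 100 kb along the genome, 3 rose and 8 fell in Step2 when all reads were counted. Of 25251 windows tested, 11 had an adjusted p below 0.05 in limma voom with Benjamini-Hochberg adjustment (0.0436%; 0.0119% higher and 0.0317% lower), here named calls, and 1111 (4.4%) had an unadjusted p below 0.05. The median log2 fold change over all windows was −0.0042. With 1 read per position limma called 0 of 25215 windows, with 1330 (5.27%) at an unadjusted p below 0.05. The 11 called windows then lay between −0.43 and 0.27 on the log2 scale. Fewer calls were made without the first Step1 library (4), without the second Step1 library (7), without the first Step2 library (6) and without the second Step2 library (3).

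The window that rose most lies on chromosome 2 from 90300001 to 90400000, a stretch with olfactory receptor pseudogene and gene model annotation. It held 67 and 103 reads in Step1 and 1812 and 2655 in Step2, against 11 and 9 in Con (log2 fold change 4.70 ± 0.20, SE, limma adjusted p = 2.10e-66). A single plus-strand position between genes, 90395133, carried 99.0% of the Step1 and Step2 reads of this window. It held 58 and 93 reads in Step1 and 1798 and 2643 in Step2, and 0 in both Con libraries. Both Step2 libraries were far above both Step1 libraries. Reads were also split by a field of their names, taken here as the sequencing run, which the labels do not give. Every library held reads of both runs, so the runs are no further replicates. Both runs of each group showed the gap, with 74 and 77 reads in Step1 and 1718 and 2723 in Step2. The rest of the window held 9 and 10 reads in Step1 and 14 and 12 in Step2.

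A second window with a rise, on chromosome 11 from 109000001 to 109100000, holds gene models and no protein-coding gene. It went from 79 and 70 reads in Step1 to 204 and 259 in Step2, with 92 and 118 in Con (1.61 ± 0.23, limma adjusted p = 2.05e-07). Its plus-strand position 109011904, between genes, held 126 and 160 reads in Step2 and 0 in both Step1 and both Con libraries. A count of 0 allows up to 3 reads at this depth, for counting error only. The median mapping quality at this position was 24, and with reads of mapping quality 30 or more the window's log2 fold change was 0.75 (limma adjusted p = 0.998). Without the second Step2 library the call was lost (1.44, limma adjusted p = 0.132).

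The third window that rose, on chromosome 5 from 146200001 to 146300000, holds most of Cdk8, the kinase of the Mediator complex. Cdk8 itself (chr5:146231230-146302874) was the 1 gene that rose in Step2 when gene bodies were counted. It held 97 and 132 reads in Step1 and 245 and 396 in Step2, with 98 and 144 in Con (1.45 ± 0.21, limma adjusted p = 0.00200). The gain lay at the minus-strand intron position 146261338, which held 8 and 26 reads in Step1, 179 and 338 in Step2 and 0 in both Con libraries. Without that position the gene had 89 and 106 reads in Step1 and 66 and 58 in Step2, so the order of the groups turned. The call held without the first Step2 library and was lost without any other of the 6 libraries, with an adjusted p of 0.295 to 0.998. The median mapping quality there was 23, and with reads of mapping quality 30 or more the gene's log2 fold change was −0.70 (limma adjusted p = 0.996).

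Cma2, of the mast cell chymase family (chr14:55950980-55974031), fell from 514 and 818 reads in Step1 to 148 and 154 in Step2, with 261 and 371 in Con (−2.11 ± 0.22, limma adjusted p = 1.50e-05). Here Step2 was below Con as well as Step1. Its plus-strand intron position 55955594 held 432 and 734 reads in Step1, 62 and 69 in Step2 and 227 and 317 in Con. The rest of the gene was level, with 82 and 84 reads in Step1 and 86 and 85 in Step2. The call on the gene was lost without either Con library (limma adjusted p = 0.320 and 0.263) or either Step2 library (0.211 and 0.295), and that on its window (−1.83 ± 0.24, limma adjusted p = 1.66e-09) held without any single library. The window's log2 fold change was 0.33 with reads of mapping quality 42, 0.30 without piled-up windows and 0.17 with 1 read per position, none of them called. Drp2, dystrophin related protein 2 (chrX:134404551-134456573), fell from 69 and 88 to 25 and 28, with 36 and 50 in Con (−1.55 ± 0.27, limma adjusted p = 0.0171). Of its Step1 and Step2 reads, 50% lay at the minus-strand position 134426871, with 42 and 61 in Step1 and 2 and 0 in Step2. The rest of Drp2 held 27 and 27 reads in Step1 and 23 and 28 in Step2, and the call was lost without any single one of the 6 libraries (limma adjusted p = 0.0957 to 0.976).

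Chl1, a neural cell adhesion molecule of the L1 family (chr6:103510586-103750211), had the smallest called change. It went from 995 and 808 reads in Step1 to 717 and 588 in Step2, with 844 and 789 in Con (−0.48 ± 0.08, limma adjusted p = 0.0171). The gene contains a piled-up window, that is 1 of the 26 windows of 10 kb with over 20 times the median of 45 reads. That window, from 103640001, held 886 and 682 of the reads in Step1 and 593 and 445 in Step2. With piled-up windows left out the log2 fold change of Chl1 was 0.17 (limma adjusted p = 0.993). The call held without the second Step1 library and was lost without any other library (0.229 to 0.998).

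In all 5 genes, 1 higher and 4 lower, were called among 10480 protein-coding gene bodies tested with all reads (0.0477%; 0.00954% higher and 0.0382% lower), and 400 genes (3.82%) had an unadjusted p below 0.05. Over all genes the median log2 fold change was 0.0009, and 5251 were above 0 and 5229 below it. Groups that did not overlap were common: both Step2 libraries lay above both Step1 libraries in 16.1% of the genes and below them in 18.1%. The number of calls rested on single libraries: limma called 0 genes without the first Con library, 0 without the second Con library, 3 without the first Step1 library, 4 without the second, 1 without the first Step2 library and 0 without the second. With 1 read per position 0 of 9717 genes were called by limma, with 471 (4.85%) at an unadjusted p below 0.05 and a median of 0.0099. Both Step2 libraries then lay above both Step1 libraries in 18.2% of the genes and below them in 15.6%.

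Among the genes that did not pass, the smallest p upward included those of Hspa8 and Plag1. Hspa8, a constitutive heat shock chaperone whose introns host small nucleolar RNAs, held 58 and 54 reads in Step1 and 103 and 100 in Step2, with 56 and 102 in Con (0.84 ± 0.23, limma adjusted p = 0.992). Plag1, a zinc finger transcription factor, had 13 and 5 against 27 and 29. With 1 read per position Plag1 was again among the 3 smallest p upward, at 13 and 5 ends in Step1 and 24 and 21 in Step2 (1.52 ± 0.42, limma adjusted p = 0.960), beside Fyttd1, an mRNA export factor, with 9 and 9 against 26 and 22, and Sfi1, a centrosomal protein gene in piled-up windows, with 980 and 942 against 1020 and 927. Lower values with 1 read per position were led by Pdzph1, with 85 and 74 ends against 45 and 41 (−0.77 ± 0.19, limma adjusted p = 0.960). Frmd3 had 128 and 114 against 76 and 81, and Ube3a, the ubiquitin ligase lost in Angelman syndrome, 75 and 53 against 35 and 36. None of these genes was called, and the groups did not overlap in any but Sfi1, by unscaled numbers.

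**Figure D1:**
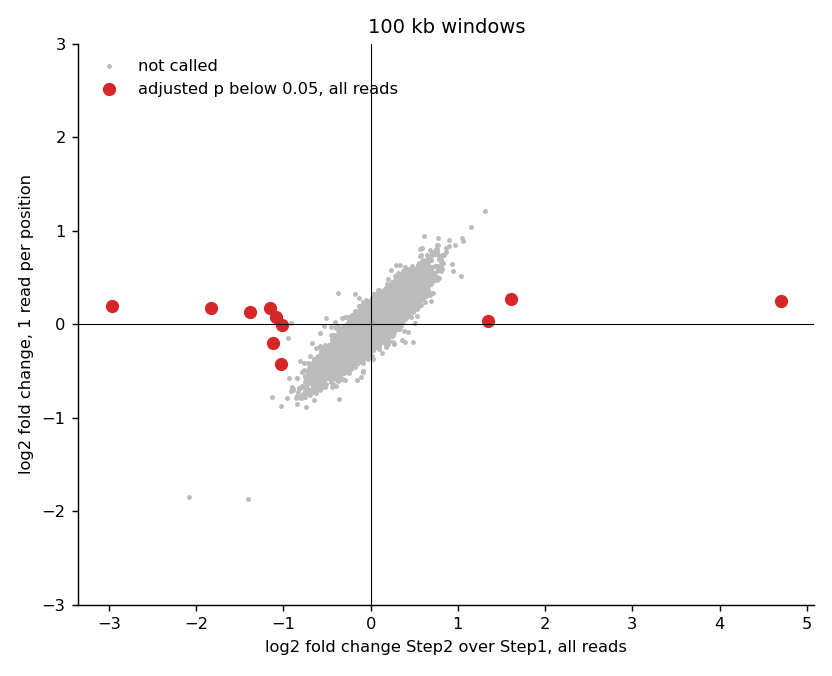
Log2 fold change of Step2 over Step1 in 25215 windows of 100 kb fitted both ways, with all reads (horizontal axis) and with 1 read per position (vertical axis). Red points are the 11 windows called with all reads, which reach 4.70 horizontally but lie between −0.43 and 0.27 vertically, and grey points are the 25204 other windows.

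The windows that fell in Step2 and hold no gene already described include noncoding RNA loci. The window on chromosome 3 from 108500001 contains Scarna2, a guide RNA of Cajal bodies (chr3:108554338-108554751), and held 216 and 196 reads in Step1 and 90 and 70 in Step2, with 110 and 167 in Con (−1.38 ± 0.23, limma adjusted p = 2.88e-05). Position 108554625 on the plus strand held 159 and 135 of the reads in Step1 and 22 and 18 in Step2. The call was lost without the first Step1 library (limma adjusted p = 0.262) or the second Step2 library (0.483). On chromosome 6 the window from 3200001 went from 111 and 123 to 46 and 60, with 57 and 61 in Con (−1.16 ± 0.23, limma adjusted p = 0.00250). Its minus-strand position 3201542, between genes, had 71 and 80 reads in Step1 and 3 and 6 in Step2. The call was lost without any single Step1 or Step2 library (limma adjusted p = 0.132 to 0.914). Of 40 bases compared from that position, 38 matched the ribosomal RNA block of chromosome 17, where positions outside that block matched at most 26.

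Windows with Gas5, with Meg3 and with gene models only on chromosome 13 were also called, but fell outside the naming rule and are given because their values had been seen. On chromosome 1 the window from 161000001, with the noncoding host gene Gas5, held 136 and 133 reads in Step1 and 67 and 66 in Step2 (−1.02 ± 0.22, limma adjusted p = 0.0112). Con held 150 and 171 there. The window of chromosome 12 from 109500001, with the imprinted noncoding RNA Meg3, held 109 and 135 against 60 and 59, with 111 and 206 in Con (−1.03 ± 0.23, limma adjusted p = 0.0155). Meg3 differed from the others in that its most used position carried only 11.6% of the Step1 and Step2 reads of the window. On chromosome 13 the window from 60200001, with gene models only, held 153 and 91 against 61 and 51 (−1.08 ± 0.23, limma adjusted p = 0.00776). Con held 62 and 59 in it, close to Step2, while in the Gas5 and Meg3 windows Step2 lay below Con. The Gas5 and Meg3 calls were lost without any single Step1 or Step2 library, and the chromosome 13 call without each of them but the second Step1 library (limma adjusted p of 0.259 to 1.00 over all 3 windows).

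Reads in these noncoding genes lay mostly on the strand opposite to the gene. In Gas5 there were 89 and 88 opposite-strand reads in Step1 and 23 and 27 in Step2, beside 0 and 2, and 1 and 0, on its own strand. Meg3 had 63 and 96 opposite-strand reads in Step1 and 22 and 16 in Step2, against 76 and 156 in Con, and 18 and 8, and 7 and 2, on its own strand. Scarna2 had 163 and 136 opposite-strand reads in Step1 and 27 and 24 in Step2, and 0 on its own strand in each of the 4 libraries. Malat1, an abundant nuclear noncoding RNA, was as one-sided but level between the groups, with 76 and 134 opposite-strand reads in Step1 and 77 and 109 in Step2. Over all small nucleolar, Cajal body and nuclear RNA genes, 91.5% and 86.4% of the Step1 reads and 80.0% and 84.3% of the Step2 reads were opposite to the gene, against 86.7% and 88.6% in Con. In protein-coding genes the share was 49.3% in both Step1 libraries and 49.0% and 49.1% in Step2. Long noncoding genes as a class showed no lean either, at 49.4% and 49.2% in Step1 and 49.9% and 49.4% in Step2. The one-sided reads of Gas5, Meg3 and Malat1 are thus no trait of that class. These class shares leave out piled-up windows.

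Small RNA genes as a class held fewer of the reads in Step2. The share of reads in small RNA genes, with piled-up windows left out, was 0.0505% and 0.0529% in Step1 and 0.0332% and 0.0360% in Step2. In Con it was 0.0414% and 0.0624%. Step2 lay below Step1 in both libraries, and the exact two-sided permutation test gave p = 0.33, the smallest that 2 libraries against 2 allow. With 1 read per position the shares were 0.0191% and 0.0226% in Step1 and 0.0204% and 0.0197% in Step2, so the groups overlapped. Single small RNA positions moved in opposite directions: the Scarna2 position was lower in Step2, while 40803662 on the minus strand of chromosome 9, in Snord14c within Hspa8, held 3 and 5 reads in Step1, 43 and 46 in Step2 and 0 in both Con libraries.

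The ribosomal RNA block on chromosome 17 (39843013 to 39848827, the span of the gene models Gm26917, Gm42418 and CT010467.1) had different positions filled in each group. Minus-strand reads there numbered 2149 and 2164 in Step1 and 1189 and 1752 in Step2, with 917 and 1612 in Con, and plus-strand reads 157 and 225 in Step1 and 171 and 122 in Step2. Position a, 39844426, held 1242 and 1158 reads in Step1, 63 and 77 in Step2 and 2 and 3 in Con. Position b, 39846123, held 145 and 129 in Step1, 0 and 1 in Step2 and 0 in both Con libraries. Position c, 39848608, ran the other way with 2 and 1 in Step1, 382 and 668 in Step2 and 0 in both Con libraries. At each of these positions the groups did not overlap, although the Step2 libraries differed from each other at c.

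**Figure D2:**
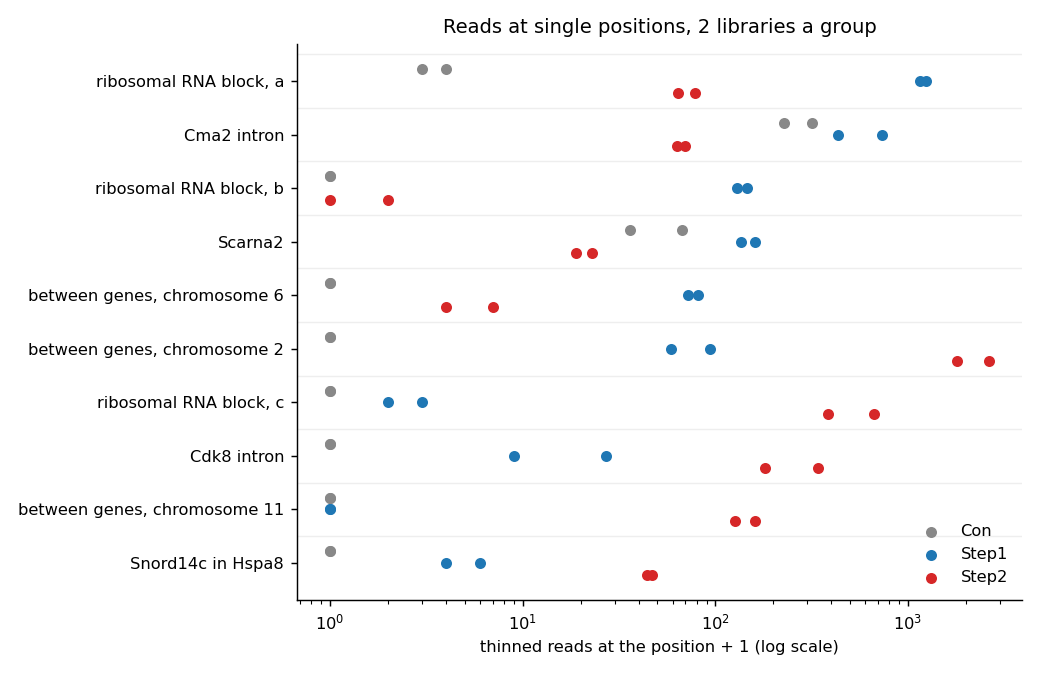
Thinned reads plus 1 at 10 single positions (horizontal axis, log scale) in each library, with Con in grey, Step1 in blue and Step2 in red, 2 libraries a group. The upper 5 positions were higher in both Step1 libraries and the lower 5 in both Step2 libraries; the chromosome 2 position between genes reached 2643 reads in Step2 and 93 in Step1.

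Positions were searched that held at least 10 reads in both libraries of one group and at most 1 read in each library of the other. There were 16 such positions high in Step2, and all 16 held at most 1 read in both Con libraries. There were 27 high in Step1, of which 17 held at least 10 reads in both Con libraries and 2 at most 1. Gaps between 1 library and 1 other follow a looser rule, so their counts cannot be set against the 16 and 27. The first Step1 library had 29 positions with at least 10 reads where the second had at most 1, and 110 the other way, and the Step2 libraries had 691 and 1010. Between a Step1 and a Step2 library this rule gave 76 to 161 positions high in Step1 and 706 to 1044 high in Step2. Of the 27 positions high in Step1, 20 lay in satellite-like or other piled-up windows outside the ribosomal RNA block and 1 in that block, while 5 of the 16 high in Step2 lay in the block.

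Most of the 16 Step2-high positions share letters before the end. The letters CGC stood 5 to 3 bases before the end, on the strand of the read, at 10 of the 16 (62.5%), against 1 of the 27 positions high in Step1 (3.70%) and 0.18% of the genome's positions on both strands. In the sequences above CGC opens the capitals of ribosomal RNA c, Cdk8, Snord14c and the chromosome 11 position, which were higher in Step2. Only the last of them is among the 16. CGC also opens the capitals of Scarna2 and ribosomal RNA a, which were higher in Step1, and not those of the chromosome 2 position, higher in Step2. Positions in repeated blocks share letters, and all 5 of the Step2-high positions in the ribosomal RNA block had CGC. Outside piled-up windows it was 3 of 8 in Step2 (37.5%) and 1 of 6 in Step1 (16.7%), and none of the 20 Step1-high positions in other piled-up windows had it. These letters were searched after the sequences had been seen, so the count is a description. Over all distinct ends CGC preceded 0.415% and 0.513% in Step1 and 0.429% and 0.421% in Step2, so the groups did not differ there beyond the replicates. Among positions with 2 to 9 reads it preceded 0.562% and 0.674% in Step1 and 0.372% and 0.351% in Step2, with 0.603% and 0.953% in Con, so Step2 was lower there. At positions with at least 10 reads in both libraries of a group and outside piled-up windows it preceded 8 of 29 in Step1 (27.6%), 10 of 23 in Step2 (43.5%) and 20 of 54 in Con (37.0%).

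More reads shared a position in Step2. The share of reads at positions with at least 2 reads on 1 strand, piled-up windows left out, was 14.4% and 18.9% in Step1 (16.7% ± 3.17, SD, n = 2) and 26.3% and 29.2% in Step2 (27.7% ± 2.04). Con held 24.5% and 33.8%, so Step2 lay within the Con range and Step1 below it. The exact permutation test gave p = 0.33, the smallest possible. Within the first sequencing run the shares were 12.2% and 15% in Step1 and 23.2% and 25.4% in Step2, and within the second 5.69% and 7.92% against 10.9% and 10.9%, so the groups were apart in each run. Positions with at least 10 reads numbered 66 and 160 in Step1 and 721 and 1037 in Step2, with 650 and 2031 in Con.

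Most of the heavily used positions of Step2 belonged to 1 library. Of the 721 such positions of the first Step2 library 41.7% were seen in the second with at least 1 read, and of the 1037 of the second 14.2% were seen in the first. In Step1 71.2% of 66 and 35.6% of 160 were seen in the other replicate. In Con it was 32.9% of 650 and 14.2% of 2031, so this was not particular to Step2. Only 23 positions outside piled-up windows held at least 10 reads in both Step2 libraries, 29 in both Step1 libraries and 54 in both Con libraries. Of the Step2 positions 2.70% to 5.69% were seen in a Step1 library, and of the Step1 positions 23.8% to 40.9% in a Step2 library.

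Piled-up windows held a smaller share of the reads in Step2 when all reads were counted. The share was 5.06% and 4.91% in Step1 and 4.41% and 4.20% in Step2, against 4.08% and 3.71% in Con (exact permutation p = 0.33, the smallest possible). The direction of the share turned with 1 read per position, with 0.465% and 0.474% in Step1 and 0.498% and 0.490% in Step2. The groups again did not overlap. The distinct positions inside piled-up windows were no more numerous in Step2. The share is relative to all distinct positions, which numbered 1297513 and 1260316 in Step1 and fewer, 1196747 and 1170585, in Step2. Of the 26 windows, 14 were lower in both Step2 libraries, 5 were higher and 7 overlapped. Over all 100-kb windows, Step2 lay above Step1 in 16.5% and below it in 17.6%. The 26 were picked by their reads over all 6 libraries, so a window could enter through 1 group. The chromosome 2 window from 90390001, among the 5, held 61 and 98 reads in Step1 and 1805 and 2649 in Step2. The count is thus a description. The densest piled-up window, on chromosome 2 starting at 98660001, is a satellite-like block with the gene models Gm10800 and Gm10801. It held 49865 and 46833 reads in Step1 and 44178 and 40899 in Step2. The distinct positions used in it hardly moved, with 1393 and 1345 in Step1 and 1359 and 1375 in Step2. Single positions in it did: 98666959 on the plus strand held 1394 and 1311 reads in Step1 and 3 and 1 in Step2, with 949 and 713 in Con, and 98662301 on the minus strand 581 and 533 against 2 and 2. The neighbouring bases 98662828 and 98662829 on the plus strand moved apart, the first from 4954 and 4443 to 3268 and 3488 and the second from 120 and 99 to 715 and 649. Higher in Step2 were also 98666573 on the plus strand, at 195 and 182 against 630 and 620, and 98662350 on the minus strand, at 50 and 59 against 358 and 323. Reads at these satellite positions had a median mapping quality of 30. The part of the read length, which differs by group, was not tested.

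**Figure D3:**
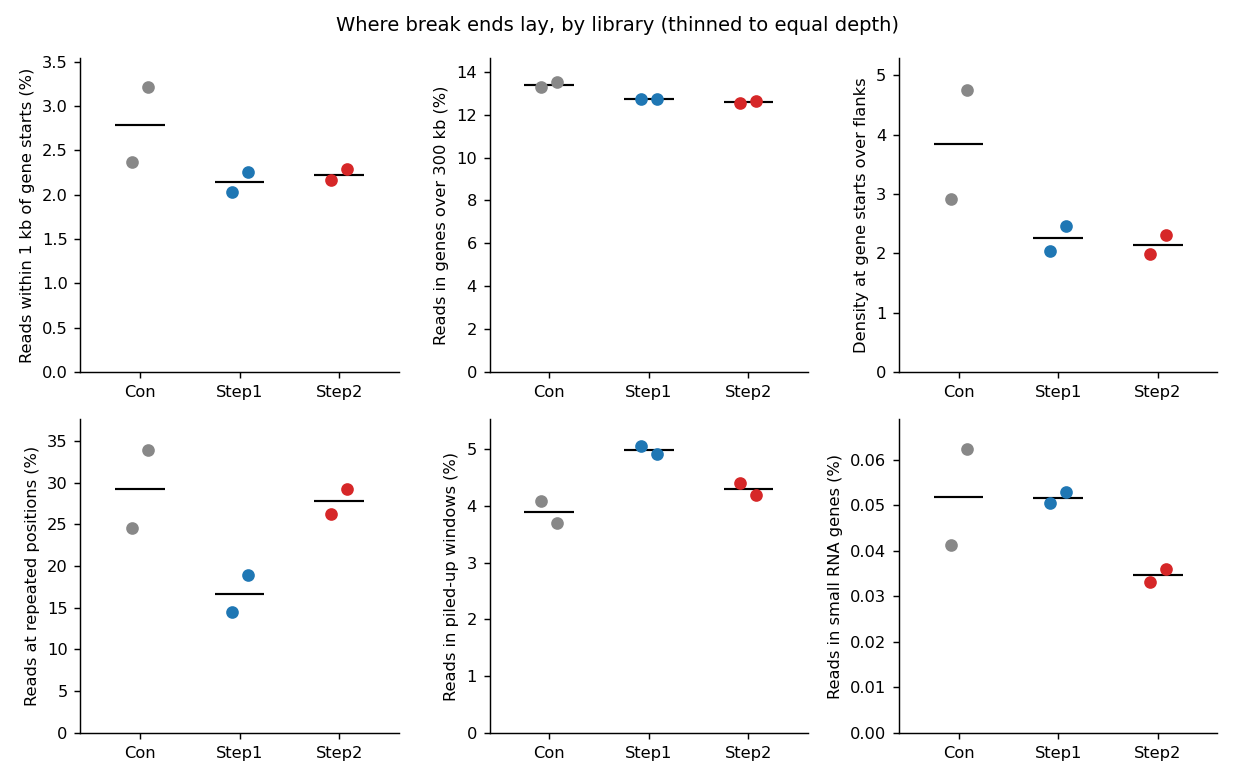
Measures of where break ends lay, each in the 2 libraries of Con, Step1 and Step2 after thinning to equal depth; points are libraries and bars are group means, in percent of reads except for the density ratio. Repeated positions (14.4% and 18.9% against 26.3% and 29.2%), piled-up windows and small RNA genes separate Step2 from Step1, while shares at gene starts overlap.

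Outside piled-up windows, the share of reads at gene starts overlapped between Step2 and Step1. Regions from 1 kb before to 1 kb after a gene start held 2.03% and 2.26% of the reads in Step1 and 2.16% and 2.28% in Step2, against 2.36% and 3.22% in Con, and make up 1.56% of the genome. The groups overlapped (difference 0.081 percentage points, exact permutation p = 0.67), also with 1 read per position, at 2.00% and 2.22% in Step1 and 2.18% and 2.31% in Step2. With piled-up windows kept the direction turned and the groups did not overlap, at 5.53% and 5.54% in Step1 and 5.28% and 5.15% in Step2 (exact permutation p = 0.33, the smallest possible). The density of ends at gene starts over that of the flanks was 2.04 and 2.46 in Step1 and 1.99 and 2.30 in Step2, with 2.92 and 4.76 in Con (difference −0.105, exact permutation p = 0.67). It was, by 1 read per position, 1.97 and 2.35 in Step1 and 1.99 and 2.28 in Step2. In both groups the second replicate was above the first by more than the groups differed. In the bin centred 100 bases before the start the density was 2.77 and 3.41 in Step1 and 2.53 and 3.02 in Step2, against 4.13 and 7.05 in Con.

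**Figure D4:**
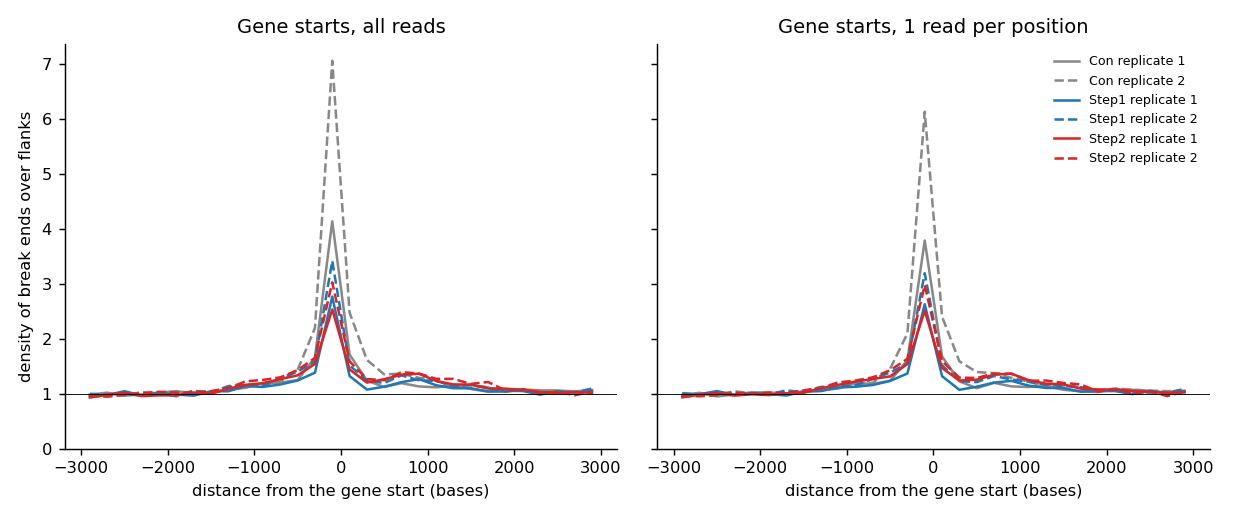
Density of break ends by distance from gene starts (horizontal axis, bases), relative to the flanks, for each library with all reads (left) and 1 read per position (right); solid lines are first and dashed lines second replicates. With all reads the Step1 peaks of 2.77 and 3.41 and the Step2 peaks of 2.53 and 3.02 overlap, and Con peaks at 4.13 and 7.05.

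Single gene starts were shallow, and 134 reached a mean of 10 reads over the 4 libraries and were tested. One fell and 0 rose (0.746% called), 7 (5.22%) had an unadjusted p below 0.05 in limma, and the median log2 fold change was −0.29, with 36 above 0 and 98 below it. Both Step2 libraries were below both Step1 libraries at 33.6% of the starts and above them at 3.73%. Starts that overlap, such as those of Hjurp and Trpm8, share reads and were each counted. The start that fell belongs to Gtf3c6, a subunit of the RNA polymerase III factor TFIIIC (chr10:40257108-40259108). It held 47 and 72 reads in Step1 and 6 and 20 in Step2, with 3 and 29 in Con (−2.35 ± 0.60, limma adjusted p = 0.0287), and 71% of the Step1 and Step2 reads lay at the minus-strand position 40258675. Next by p were the starts of Slc2a8, a glucose transporter, with 22 and 18 against 5 and 4, Ciart, a circadian repressor, with 29 and 26 against 5 and 12, and Cth, the cystathionine gamma-lyase gene, with 52 and 52 against 22 and 14. None of these 3 was called. The count was 5 without the first Con library, 4 without the second Con library, and 0 without the second Step1, the first Step2 or the second Step2 library.

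Starts counted by 1 read per position gave 2 calls of 56 tested (3.57%) and 3 unadjusted p-values below 0.05 (5.36%). The lean to lower values was small here, with a median log2 fold change of −0.071, 24 above 0 and 32 below it. Both Step2 libraries were below both Step1 libraries at 12.5% of these starts and above them at 10.7%. The calls were both higher, and both are gene models in satellite-like blocks. They lie outside the naming rule and were picked out once their values were known. At the start of Gm10800 there were 665 and 651 distinct positions in Step1 and 658 and 652 in Step2 (0.11 ± 0.02, limma adjusted p = 0.000564), and at that of Gm21738 448 and 467 against 482 and 457 (0.15 ± 0.04, limma adjusted p = 0.00150). The unscaled numbers overlapped at both starts. The libraries as a whole had 1297513 and 1260316 distinct positions in Step1 and 1196747 and 1170585 in Step2, and the fold change is relative to these totals outside piled-up windows. With median-of-ratios scaling neither was called. Without the second Step2 library 0 were called, and without the first Step1 or the first Step2 library 1.

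Very long genes held slightly fewer ends in Step2. Genes over 300 kb had 12.7% of the reads in both Step1 libraries and 12.5% and 12.6% in Step2, against 13.3% and 13.5% in Con (difference −0.154 percentage points, exact permutation p = 0.33, the smallest possible). The groups did not overlap with all reads or with 1 read per position, where the difference was −0.176, and overlapped when piled-up windows were kept (−0.061). Of the 567 genes of this length 233 were above 0 and 334 below it, with a median log2 fold change of −0.021. The medians were 0.019 for genes under 30 kb, 0.0057 from 30 to 100 kb and −0.0021 from 100 to 300 kb.

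The 40 genes of the list of recurrently broken long neural genes showed the same small offset, and none passed the test. Of 39 tested, 12 were above 0 and 27 below it with a median of −0.045, beside 0.0009 over all genes, and with 1 read per position 8 were above and 31 below it with a median of −0.045. Both Step2 libraries lay below both Step1 libraries in 15 of the 39 with all reads and above them in 3, beside 18.1% and 16.1% of all genes. Npas3, a neuronal transcription factor (chr12:53248677-54072175), had 498 and 522 reads in Step1 and 500 and 449 in Step2 (−0.12 ± 0.07). Pard3b, a cell polarity gene (chr1:61638824-62642284), had 622 and 627 against 546 and 592 (−0.15 ± 0.06). Ntm, an IgLON adhesion molecule (chr9:28994750-29963141), had 579 and 560 against 597 and 576 (0.032 ± 0.064). Each of these 3 had a limma adjusted p of 0.992.

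Synaptic genes leaned the same way without a call. Of 38 tested, 7 were above 0 and 31 below it, with a median of −0.13, and with 1 read per position the 37 tested had 6 above and 31 below 0 and a median of −0.064. Camk2a, the calcium/calmodulin kinase whose promoter drives p25 in this line, had 32 and 46 reads in Step1 and 31 and 28 in Step2, with 48 and 45 in Con (−0.39 ± 0.29, limma adjusted p = 0.992). Unc13a, a vesicle priming factor, had 25 and 45 against 28 and 28, and Dlg4, the PSD-95 scaffold, 16 and 18 against 23 and 23. In the p25 and Cdk5 list 13 of 18 genes were tested, with 2 above 0, 11 below it and a median of −0.12, and with 1 read per position 12 were tested, with 4 above 0, 8 below it and a median of −0.091. App, the amyloid precursor gene, had 144 and 128 against 125 and 131, Gsk3b, a tau kinase, 105 and 96 against 92 and 95, and Sirt1, a deacetylase, 40 and 43 against 38 and 35. Cdk5r1, which encodes p35, was too short and shallow to test, with 1 and 1 reads in Step1 and 4 and 1 in Step2.

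The stress, signalling and genome maintenance lists had medians from −0.094 to 0.18 and 0 calls by limma. The p53 and cell death list had 16 genes tested, 10 above 0, and a median of 0.18, with 2 at an unadjusted p below 0.05. Casp8, an initiator caspase (chr1:58795374-58847503), had 35 and 28 reads in Step1 and 51 and 49 in Step2 (0.66 ± 0.27, limma adjusted p = 0.992). NF-kB and cytokine genes had 9 of 12 above 0 and a median of 0.17, with 1 at an unadjusted p below 0.05, Traf1, a TNF receptor adaptor, at 13 and 5 against 22 and 15. Early response genes had 6 of 8 above 0 (median 0.12, 0 at an unadjusted p below 0.05), with Bdnf, a neurotrophin, at 31 and 35 against 39 and 29. Interferon and antigen presentation genes had 3 of 8 above 0 (median −0.058, 0 at an unadjusted p below 0.05). Break repair genes had 9 of 25 above 0 (median −0.094, 2 at an unadjusted p below 0.05). Atr, a checkpoint kinase of this list, had 63 and 65 against 56 and 65. Top2b, the neuronal type II topoisomerase, had 48 and 49 against 44 and 41. The break repair list as a whole leaned the other way. Its 32 genes together held 1025 and 1020 reads in Step1 and 1050 and 1098 in Step2. By 1 read per position their depth-scaled ends per kb were 0.358 and 0.358 in Step1 and 0.365 and 0.378 in Step2. Cohesin and chromatin architecture genes had 14 of 26 above 0 (median 0.039, 1 at an unadjusted p below 0.05), with Stag2, a cohesin subunit, at 70 and 96 against 105 and 84. The p53 and cell death list had, with 1 read per position, 10 of 14 above 0 (median 0.18), NF-kB and cytokine genes 7 of 9 (0.29), early response genes 3 of 6 (0.059) and interferon and antigen presentation genes 4 of 7 (0.020). Break repair genes then had 11 of 24 above 0 (median −0.019) and cohesin and chromatin architecture genes 15 of 26 (0.043).

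The cell type marker lists had medians from −0.18 to 0.067. Excitatory neuron markers had 3 of 7 above 0 (median −0.13), inhibitory neuron markers 3 of 5 (0.022), astrocyte markers 2 of 6 (−0.18), oligodendrocyte markers 3 of 5 (0.0001), microglia markers 4 of 6 (0.056) and vascular markers 6 of 9 (0.067). Foxp2, a transcription factor of deep-layer neurons, had 362 and 334 reads in Step1 and 333 and 309 in Step2, and Rorb, a cortical layer nuclear receptor, 92 and 96 against 123 and 104. Gad2, a GABA-synthesizing enzyme, had 49 and 36 against 45 and 64, Slc1a2, the glial glutamate transporter, 84 and 88 against 68 and 87, and Mbp, myelin basic protein, 69 and 57 against 64 and 60. Cx3cr1, the fractalkine receptor of microglia, had 83 and 114 against 88 and 91, and P2ry12, their purinergic receptor, 23 and 17 against 20 and 22. With 1 read per position the medians were −0.11, 0.039, −0.10, 0.060, 0.20 and 0.058 in the same order. Olfactory receptor genes, which forebrain neurons keep silent, had 20 of 31 tested above 0 and a median of 0.11. All 1135 of them together held 4308 and 4458 reads in Step1 and 4717 and 4777 in Step2, against 4416 and 4465 in Con. Of 17 tested with 1 read per position 11 were above 0 (median 0.12). Histone genes had 0 of 3 tested above 0 (median −0.19), and 1 of 3 with 1 read per position (−0.29).

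Ribosomal protein genes had 3 of 6 tested above 0 and a median of −0.25, while with 1 read per position 2 of 3 were above 0 and the median was 0.21. Summed over all 40 of them, with Rpl4 holding most of the Step1 reads, they had 2.10 and 1.63 ends per kb and 1e+06 reads in Step1. In Step2 this summed density was 1.30 and 1.55. That order turned with 1 read per position, with 0.430 and 0.479 in Step1 and 0.566 and 0.547 in Step2. Rpl4 (chr9:64173375-64178666), a large subunit protein whose introns host small nucleolar RNAs, had 480 and 343 reads in Step1 and 195 and 273 in Step2, with 241 and 450 in Con (−0.82 ± 0.20, limma adjusted p = 0.587). Most of these reads lay at the minus-strand position 64175112, inside a snoRNA gene model, with 468 and 318 in Step1 and 185 and 266 in Step2. In reads, the fall at this position was larger than that of all 40 genes together. The lower summed density in Step2 with all reads thus rests on this position. Without Rpl4 the other genes together held more reads in both Step2 libraries than in either Step1 library. Rpl5 had 21 and 19 against 35 and 59 (1.16 ± 0.39, limma adjusted p = 0.992).

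**Figure D5:**
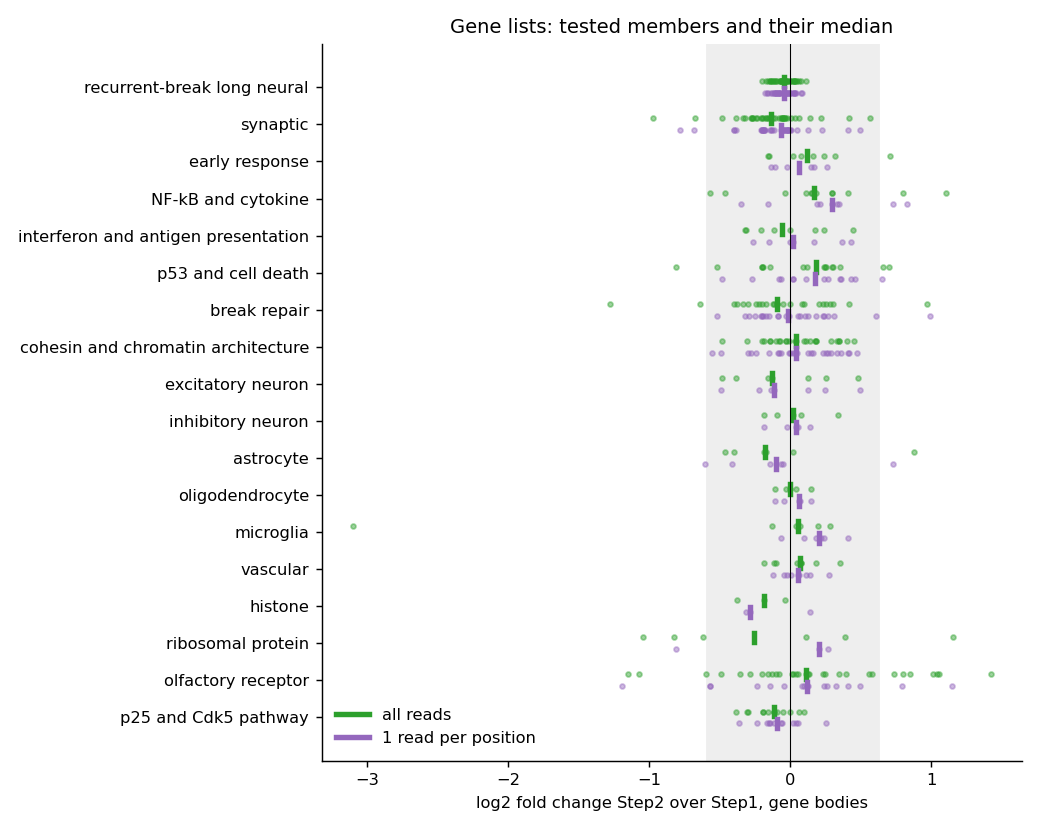
Log2 fold change of Step2 over Step1 for the tested gene bodies of 18 gene lists (horizontal axis; dots are genes, thick bars are list medians), with all reads in green and 1 read per position in purple; the grey band spans the 5th to 95th percentile of all genes, −0.59 to 0.63. Synaptic genes (median −0.13) and recurrent-break long neural genes (−0.045) lie left of 0.

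With all reads the base before the end was T in 41.5% and 42.4% of the Step1 reads and 42.1% and 43.0% of the Step2 reads, against 44.8% and 48.4% in Con and 29.1% of the genome. Step2 and Step1 overlapped (exact permutation p = 0.67), also with 1 read per position, at 41.6% and 42.5% in Step1 and 42.1% and 43.0% in Step2. Pairs of opposite-strand ends close by were set over pairs farther apart, always with 1 read per position. This ratio was 1.51 and 2.00 in Step1 and 1.58 and 2.04 in Step2, with 2.34 and 4.50 in Con (exact permutation p = 0.67). Of the 20 chromosomes 8 had shares of reads that did not overlap between the groups (40%), with differences of at most 0.055 percentage points. Counted by 1 read per position 10 did (50%), the X chromosome by −0.115 percentage points, at 5.80% and 5.83% in Step1 and 5.66% and 5.74% in Step2.

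Leaving out every position with at least 20 reads in any library, 981 positions with 3.46% to 4.20% of the Step1 and Step2 reads, left 0 genes, 0 gene starts and 0 windows called by limma, with 428, 4 and 1124 at an unadjusted p below 0.05. This alternative was added after the values were seen. A position high in only 1 group is left out here because of that height, so the loss of calls follows in part from the choice of positions.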

How the data were processed

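Per the labels' design text, BLISS libraries of sorted neurons were sequenced single-end, PCR copies were removed by molecular identifier, and reads were mapped to mm10 with Bowtie2 and converted with SAMtools and bedtools, tools also named in the submitters' processing notes. The sources used here give no versions. The deposited files hold 1 read per line with its mapping quality score as the authors' aligner gave it, from 11 to 42.

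The 5′ end of every read on chromosomes 1 to 19 and X was taken as its position. Libraries were thinned to 1479945 reads, and counts were made with all reads and with 1 read per position and strand, which also removes separate molecules that broke at the same base. Counts in 21755 protein-coding genes (GENCODE annotation of GRCm38), in the 1 kb on either side of their starts, and in 100-kb windows were kept where the mean over the 4 libraries reached 10 reads. They were fitted with limma 3.58.1 (voom, R 4.3.3), with 1 mean per group over all 6 libraries so that Con also informed the spread, and scaled to reads outside the 26 piled-up windows of 10 kb. P-values were adjusted by Benjamini-Hochberg over all features of a fit, and 0.05 was the threshold. Folds are of Step2 over Step1, and ± after a fold is its standard error. Single values per library were compared by a two-sided exact permutation test, which with 2 against 2 libraries cannot go below 0.33. The gene fit was tried on simulated counts with known folds over whole genes. Those counts held no single positions with many reads, so the trial does not bear on calls that rest on such positions. Python 3.11.15, pandas 2.3.3, SciPy 1.17.1 and matplotlib 3.10.9 were used.

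The named genes were, per direction, the 10 called genes (5 starts or windows) with the largest fold, with groups that did not overlap and a mean of at least 20 reads, or 5 genes and 3 starts or windows with 1 read per position. Where fewer than 3 passed, the 3 smallest p-values were taken. Gene models were counted and not named, and some features that the rule takes are counted but not reported here. Added to these were Camk2a and Cdk5r1, up to 4 members of each list by reads per kb, and the 5 positions per direction with the largest difference. The libraries compared, the gene lists and the rules were chosen with earlier results of these data known. Alternatives changed the thinning, scaling, filter, mapping quality, model, feature size, sequencing run and libraries.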

Additional observations from a re-analysis of the deposited data

How the results depend on the processing

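The number of calls depended on the settings for every kind of feature. For gene bodies with all reads, 5 calls became 8 with another random draw, 1 with a filter at a mean of 2 reads, 2 with mapping quality 42, 8 with limma-trend, 0 with only the Step1 and Step2 libraries, 10 in the first sequencing run, 1 without piled-up windows, 14 with genes extended by 5 kb, 0 without positions of 20 or more reads, 0 with 1 read per position, and 0 to 4 with each library left out. For gene starts with all reads, 1 call became 0 with a filter at 2 or 30 reads, mapping quality of 30 or 42, either run, or without positions of 20 or more reads, 2 with limma-trend or 1 read per position, 3 with only the Step libraries, and 0 to 5 with each library left out. For starts with 1 read per position, 2 calls became 0 with median-of-ratios scaling, GC correction, either run or without piled-up windows, 1 with mapping quality of 30 or 42, and 0 to 3 with each library left out. For windows, 11 calls became 4 with mapping quality 42, 5 in the first run, 7 without piled-up windows, 4 at 1 Mb, 0 without positions of 20 or more reads, 0 with 1 read per position, and 3 to 11 with each library left out. Without thinning, 1 read per position gave 4 gene calls and 2 window calls against 0.

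Replicate numbers are shared by the groups, but the labels do not say that they pair libraries. Differences between replicates correlated across groups by −0.017 to 0.030 over genes and 0.0056 to 0.013 over windows, and by 0.195 to 0.225 over gene starts, with all reads. With the replicate block 9 genes and 7 gene starts were called with all reads, and 4 gene starts with 1 read per position. Every other count of calls with the block stayed within 1.5 times.

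Some directions turned. With mapping quality of 30 or more, Cdk8 came to −0.70, its window to −0.52 and the Slc25a42 start, counted by 1 read per position, from 0.23 to −0.18. With mapping quality 42 Cdk8 came to −0.65, its window to −0.59, that start to −0.22, Chl1 to 0.23, the Cma2 window to 0.33 and Gm21738 to −0.013. Without piled-up windows Cdk8 came to −0.087, its window to −0.0036, Chl1 to 0.17 and the Cma2 window to 0.30. Without positions of 20 or more reads Cdk8 came to −0.27, its window to −0.19, Hspa8 to −0.62, Cma2 to 0.34, its window to 0.47, and the windows of Scarna2 and of chromosome 6 to 0.0017 and 0.33. With 1 read per position Hspa8 came to −0.22, Drp2 to 0.021, Chl1 to 0.0024, the Cma2 window to 0.17, the Scarna2 window to 0.14, the chromosome 6 window to 0.17 and the chromosome 13 window from 60200001 to 0.082. With another random draw the Camta1 start, counted by 1 read per position, came to −0.099. Apart from what each setting leaves out, the cause was not tested.

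The difference in the share of reads at gene starts, 0.081 percentage points, became −0.321 with piled-up windows kept and −0.032 to 0.195 with a library left out. The difference in start density, −0.105, became 0.014 with them kept, 0.0082 in the first run and −0.315 to 0.105 with a library left out. The piled-up share, −0.679, became 0.024 with 1 read per position. The opposite-strand ratio, 0.050, became −0.0011 with piled-up windows kept, −0.036 and −0.017 in the runs and −0.196 to 0.296 with a library left out. The 8 chromosomes that did not overlap became 13 with piled-up windows kept, 5 and 4 in the runs, and 10 to 17 with a library left out. Without the first Step1 library and without the first Step2 library, respectively, the Golph3l start was at −0.24 and 0.67 and that of Slc25a42 at −0.007 and 0.59, both counted by 1 read per position. With 2 libraries a group, the median standard error over the tested genes was 0.337 on the log2 scale, so small differences were not detectable at this depth.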

Other observations

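Some of the 27 positions high in Step1 and the 16 high in Step2 were not named above and are given here as values. Inside Jarid2, a subunit of Polycomb repressive complexes, position 44869967 on the plus strand of chromosome 13 held 31 and 45 reads in Step1, 0 in both Step2 libraries and 71 and 222 in Con. On chromosome 16, position 19396911 on the plus strand held 41 and 50 reads in Step1, 0 in both Step2 libraries and 1 and 0 in Con. In Malat1, positions 5801011 and 5801237 on the plus strand of chromosome 19 held 13 and 18, and 11 and 13, reads in Step2 and 0 in both Step1 libraries. In Il1rapl1, a synaptic receptor gene of the X chromosome, position 87238408 on the minus strand held 1 and 0 reads in Step1 and 15 and 27 in Step2. In Snord14d, the neighbour of Snord14c in Hspa8, position 40804074 on the minus strand of chromosome 9 held 1 and 0 reads in Step1 and 32 and 27 in Step2. A count of 0 allows up to 3 reads, for counting error only.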
